A study of Mus musculus with 8 samples.

Results

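To set the middle of the night against the middle of the day in the mouse colon, RNA-seq libraries of colonic crypts taken at zeitgeber time (ZT) 18 were compared with those taken at ZT6, where lights go on at ZT0 and off at ZT12. The comparison used 4 of the 8 libraries in the series, replicates 1 and 2 of ZT6 and replicates 1 and 2 of ZT18, and 13503 of the 14247 genes in the deposited table, those with a mean of at least 10 normalized counts over the 8 libraries. All of these libraries are labelled as wild-type (WT) colonic epithelial cells without treatment, so that the groups differ by their labels only in the time of collection. According to the methods of the study, its mice had a C57BL/6 background, were 2 to 4 months old, lived under 12 h of light and 12 h of darkness with food and water always present, and crypts were freed from the large intestine with EDTA and scraping. The labels do not say whether a library came from 1 mouse or from several, so the p-values below measure the spread between libraries only. That spread was estimated from all 8 libraries of the series, those of ZT0 and ZT12 among them. The study describes more mice per time point than there are libraries here, and further samples were not analysed here.

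Mice are night-active and take most of their food in the dark, so ZT6 lies in their resting, mostly fasting phase and ZT18 in their active, mostly feeding phase. Nearly every cell keeps time with a loop in which BMAL1 (encoded by Arntl) and CLOCK switch on the Per and Cry genes, whose proteins later block them, while the REV-ERB repressors (Nr1d1, Nr1d2) and activating receptors such as RORA compete at the promoters of Arntl and of other genes. Feeding and the daily peak of corticosterone at the start of the night reach the gut in parallel with this loop, and in the intestinal epithelium nutrient uptake, cell division and defence against microbes are known to vary over the day.

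The 4 libraries held 15769362 and 17492669 reads at ZT6 and 25159440 and 21047784 at ZT18. The ZT6 libraries were close to each other (Pearson r = 0.9747 of log2 values across genes, which do not count as replicates), whereas the ZT18 libraries were less alike (r = 0.9224) than ZT18 replicate 2 was to either ZT6 library (r = 0.9544 and 0.9586). The mitochondrial genome took 19.2% and 19.4% of the normalized counts at ZT6, but 22.2% in ZT18 replicate 1 and 9.80% in ZT18 replicate 2. The markers of the labelled cell type were high: the 12 epithelial markers, among them Epcam, Cdh1 and Krt8, summed to between 329722 and 435061 normalized counts in the 4 libraries and had a median log2 fold change of 0.02 from ZT6 to ZT18. Other cell types were low, with T cell markers summing to between 107 and 291, endothelial markers to between 53.9 and 264, and fibroblast markers to between 3.22 and 92.5 normalized counts. In such bulk samples, fewer cells of a type and less RNA per cell cannot be told apart.

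Between mid-day and mid-night 6 genes changed, and 4 of them belong to the clock. Per2 and Cry1 were among the genes that rose, and Nr1d1, the long noncoding RNA Gm42047 and Ccdc116 fell (limma on log2(normalized count + 1), Benjamini-Hochberg adjusted p under 0.05, 0.0444% of the genes tested, 0.0222% higher and 0.0222% lower). At an unadjusted p under 0.05 there were 906 genes (6.71%), of which 435 were higher (3.22%) and 471 lower (3.49%) at ZT18. In 5136 genes (38.0%) both ZT18 libraries lay above or both lay below the 2 ZT6 libraries. With 2 libraries in each group such a separation is common by chance, so for a single gene it is a weak description. The median log2 fold change over all genes was -0.01. DESeq2, run on the read counts recovered from the table, called 68 genes (0.504%), 42 higher (0.311%) and 26 lower (0.193%), which included all 6 of the limma calls, and edgeR called 7 (0.0518%), the same 6 and Dbp. Libraries of each time point decided how many genes passed: limma called 0 genes without ZT6 replicate 1, 1 without ZT6 replicate 2, and 3 without either of the ZT12 libraries, which take part in the estimate of the spread, while 9 passed without either of the ZT0 libraries, 5 without ZT18 replicate 1 and 6 without ZT18 replicate 2. These sets differed in their genes, since 5 of the 6 genes were among those called without either ZT0 library, 4 without ZT18 replicate 1 and 3 without ZT18 replicate 2. With no mean-variance trend in the estimate of the spread 1 gene was called, and 0 of the 6 were among the calls. A limma fit of the 4 ZT6 and ZT18 libraries alone called 0 genes.

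**Figure D1:**
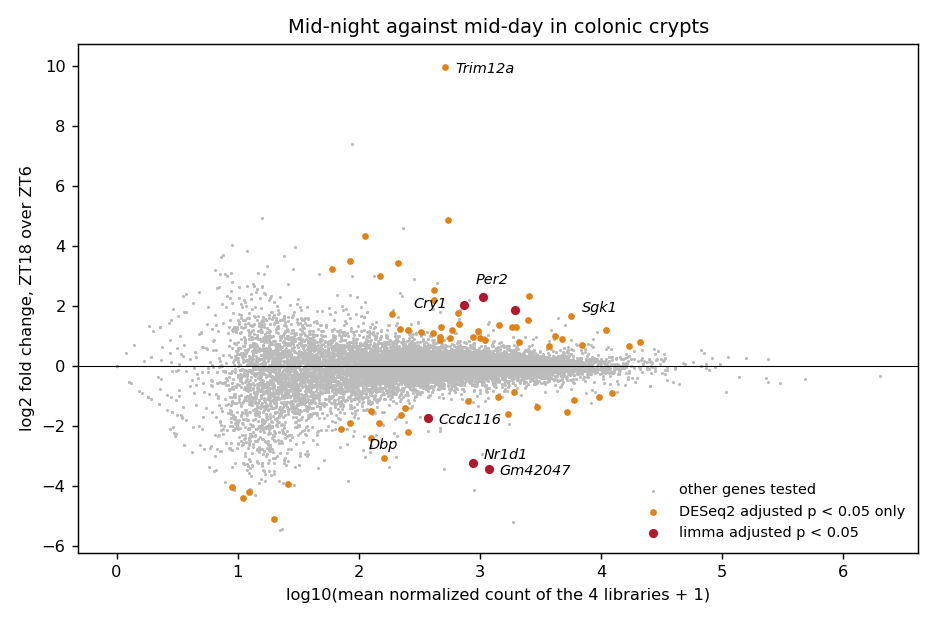
Each point is 1 of the 13503 genes, with log10 of its mean normalized count (plus 1) over the 4 ZT6 and ZT18 libraries on the x axis and its log2 fold change from ZT6 to ZT18 on the y axis. The 6 genes called by limma (red) have log2 fold changes between -3.45 and 2.31, and genes called by DESeq2 alone (orange) include Trim12a, whose 2 ZT6 libraries are at 0.

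Among the repressors of the clock, Per2 and Cry1 were low at mid-day and high at mid-night. Per2 (period 2; ENSMUSG00000055866, chromosome 1, 91415982 to 91459324, minus strand) had 411 and 302 normalized counts at ZT6 and 1599 and 1923 at ZT18. Both ZT18 libraries lay far above both ZT6 libraries, and the log2 fold change was 2.31 (SE 0.25, limma adjusted p 0.0151). Cry1, which encodes the cryptochrome that represses CLOCK and BMAL1 late in the night (ENSMUSG00000020038, chromosome 10, 85131700 to 85185064, minus strand), had 265 and 312 normalized counts at ZT6 and 1137 and 1239 at ZT18. It rose by 2.04 on the log2 scale (SE 0.19, limma adjusted p 0.00722), again with no overlap between the groups. Cry2, Per1 and Per3, the remaining members of these families, did not pass. Cry2 had 509 and 561 normalized counts at ZT6 and 1029 and 837 at ZT18, which do not overlap (log2 fold change 0.80, limma unadjusted p 0.00502, adjusted 0.61). Per1 had 338 and 403 at ZT6 and 574 and 563 at ZT18 (log2 fold change 0.62, limma adjusted p 0.719), and Per3 was nearly level, with 457 and 419.9 at ZT6 and 480.2 and 469.7 at ZT18.

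The stretch of the Cry1 promoter that holds the E-box, the sequence CACGTG to which CLOCK and BMAL1 bind, is shown because Cry1 was the member with the smallest adjusted p whose RefSeq promoter had one. It is 100 bases long (chr10:85185062-85185161, minus strand of GRCm38.p6, RefSeq), is written 5′ to 3′ along the gene, and has the E-box in capitals; the match begins 60 bases before the annotated start.
Cry1: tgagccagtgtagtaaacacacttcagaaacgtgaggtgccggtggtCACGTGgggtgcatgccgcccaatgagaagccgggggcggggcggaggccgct
Of the 15 clock genes with a promoter in the RefSeq table, 5 (33.3%) had CACGTG within 250 bases upstream (Ciart, Cipc, Cry1, Per1 and Tef), against 6.02% of all 32851 promoters. In the other gene lists described below the share ran from 0.00% to 35.0%, the latter in autophagy and lysosome genes. It was 30.8% in glucocorticoid targets, so the clock list was not set apart by this match. The D-box, spelled TTATGTAA or TTACGTAA on either strand and bound by DBP, TEF and NFIL3, was found in the promoter of 1 clock gene, Per3 (0.931% of all promoters). No member held the ROR element (TAGGTCA or TGGGTCA preceded by AA and 1 free base) in that window (0.350% of all promoters). A match of letters is a description and not a bound site.

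Nuclear receptors act on Arntl from outside the Per and Cry loop. Nr1d1, which encodes the repressor REV-ERB alpha (ENSMUSG00000020889, chromosome 11, 98767932 to 98775333, minus strand), had 1830 and 1352 normalized counts at ZT6 and 197 and 142 at ZT18, so that both night libraries lay far below both day libraries. It fell by 3.23 on the log2 scale (SE 0.34, limma adjusted p 0.0151). Nr1d1 overlaps Thra on the opposite strand, and since the use of strand in counting is not stated, reads of the 2 genes may not have been separated. Its relative Nr1d2 (REV-ERB beta) had 1278 and 1322 normalized counts at ZT6 and 743 and 659.5 at ZT18, with no overlap and a log2 fold change of -0.89 (limma adjusted p 0.5). Rora, which encodes an activator that competes with the REV-ERB proteins, was barely detected, with 3.696 and 9.79 at ZT6 and 10.3 and 6.43 at ZT18.

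The activators themselves showed no called difference between these times. Arntl had 679 and 557 normalized counts at ZT6 and 649 and 799 at ZT18, which overlap (log2 fold change 0.23, SE 0.27, limma adjusted p 0.932), and its extremes lay at the remaining time points, with 1597 and 1038 at ZT0 and 301 and 436 at ZT12. Clock had 1798 and 1763 at ZT6 and 1666 and 1700 at ZT18, and Npas2, a relative of Clock that can stand in for it, had 625 and 585 at ZT6 and 464 and 685 at ZT18. The ZT6 and ZT18 levels of Arntl therefore lie between its highest level at ZT0 and its lowest at ZT12.

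Of the transcription factors through which the clock reaches its output genes, Dbp was lower and Nfil3 was higher at mid-night. Dbp, an activator of D-box genes, had 482 and 361 normalized counts at ZT6 and 89.7 and 88.5 at ZT18, so that the groups did not overlap. Its log2 fold change of -2.21 (SE 0.30) narrowly missed the threshold in limma (adjusted p 0.0592) and passed in edgeR and in DESeq2 (adjusted p 2.24e-09). Nfil3, which encodes a repressor of the same D-box genes, had 59.1 and 79.4 normalized counts at ZT6 and 144 and 228 at ZT18 (log2 fold change 1.39, limma adjusted p 0.634). Tef, an activator like Dbp, had 1259 and 1354 at ZT6 and 1830 and 1182 at ZT18, which overlap. Ciart, a repressor of CLOCK and BMAL1, had 136 and 78.3 at ZT6 and 35.9 and 60.3 at ZT18 (log2 fold change -1.13, limma adjusted p 0.719), and Cipc and Bhlhe40, further repressors, had log2 fold changes of 0.01 and 0.26. Of the 20 clock genes listed, 18 were tested. In limma 3 rose and 1 fell, against 0.0222% and 0.0222% of all genes. There were 6 higher and 4 lower at an unadjusted p under 0.05, against 3.22% and 3.49% of all genes. The median log2 fold change was 0.20.

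**Figure D2:**
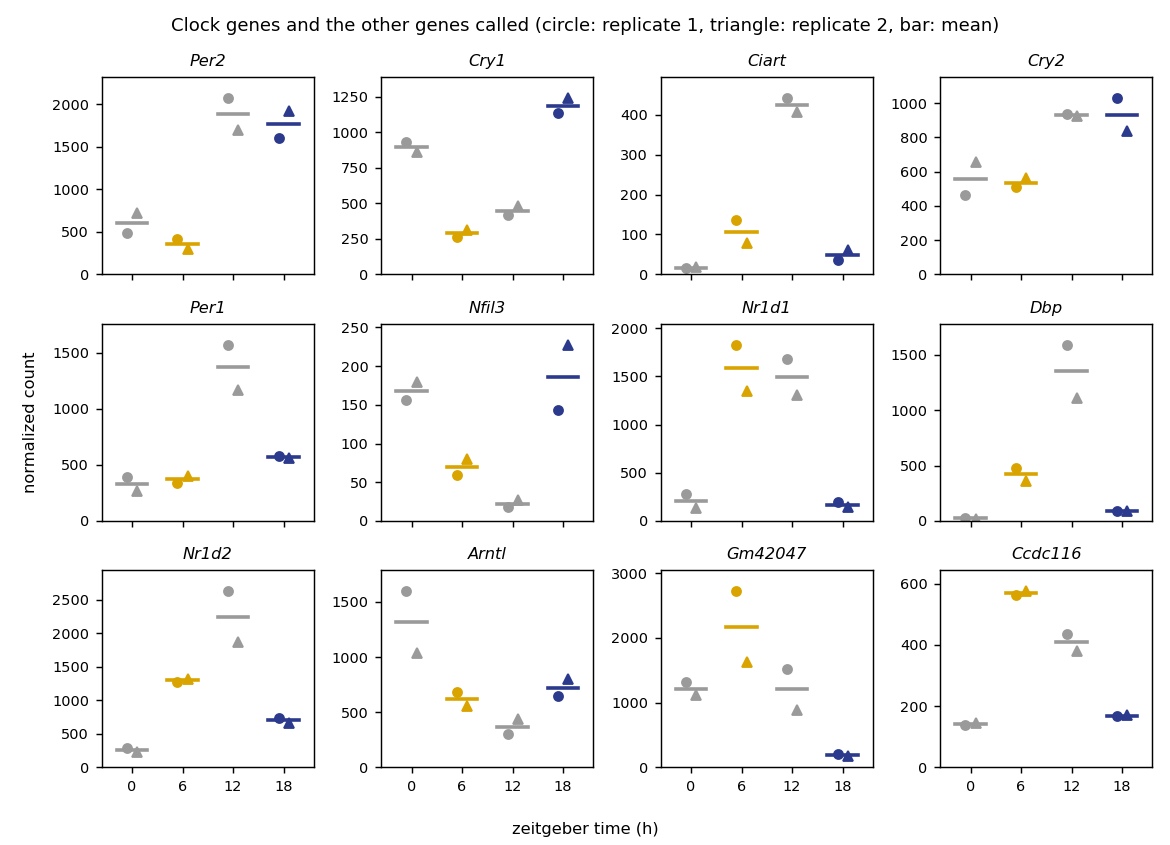
Normalized counts (y axis, starting at 0) of 10 clock genes, Gm42047 and Ccdc116 by zeitgeber time (x axis, hours), with replicate 1 as a circle, replicate 2 as a triangle and the mean of both as a bar; ZT6 is yellow, ZT18 is blue and the remaining times are grey. Per2 and Cry1 stand at their lowest at ZT6, Nr1d1 is high at ZT6 and ZT12 and low at ZT0 and ZT18, and Arntl at both times lies between its ZT0 and ZT12 levels.

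Outside the clock, Gm42047 and Ccdc116 were the only genes to pass in limma. Gm42047, a long noncoding RNA (ENSMUSG00000110631, chromosome 8, 121833247 to 121841178, plus strand), had 2719 and 1619 normalized counts at ZT6 and 206 and 178 at ZT18. It had the largest fall among the 6 genes, 3.45 on the log2 scale (SE 0.31, limma adjusted p 0.00722), and was also above both ZT18 libraries at the remaining times, with 1317 and 1112 at ZT0 and 1514 and 892 at ZT12. Ccdc116, which encodes a coiled-coil protein (ENSMUSG00000022768, chromosome 16, 17139064 to 17147229, minus strand), had 562 and 575 normalized counts at ZT6 and 168 and 169.7 at ZT18. Replicates of each time differed by far less than the groups did, and it fell by 1.74 on the log2 scale (SE 0.22, limma adjusted p 0.0456). Ccdc116 overlaps Ydjc on the opposite strand, so that the origin of its reads is uncertain in the same way as for Nr1d1.

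A further group of genes missed the limma threshold and was called by DESeq2. Sprr2a1, a small proline-rich protein of the epithelial barrier, had 2740 and 2385 normalized counts at ZT6 and 875 and 812 at ZT18 (log2 fold change -1.60, limma adjusted p 0.0592, DESeq2 adjusted p 6.8e-08). Its near copy Sprr2a2, which overlaps it on the same strand and can take its reads, had 4901 and 3721 normalized counts at ZT6 and 1915 and 1420 at ZT18 (log2 fold change -1.37). Both were lower at mid-night in both libraries. Tppp and Tppp3, which encode proteins that bundle microtubules, were higher at mid-night: Tppp had 1400 and 1184 normalized counts at ZT6 and 3733 and 3701 at ZT18 (log2 fold change 1.53, limma adjusted p 0.1). Tppp3 had 1031 and 629.9 normalized counts at ZT6 and 5483 and 2998 at ZT18 (log2 fold change 2.33, limma adjusted p 0.18), so that the ZT18 libraries differed between themselves and both lay above the ZT6 range. Tns4, a focal adhesion protein, had 9132 and 7132 normalized counts at ZT6 and 4258 and 3214 at ZT18 (log2 fold change -1.13, limma adjusted p 0.367, DESeq2 adjusted p 0.000562), and thus was lower at night.

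Sgk1 led the genes that answer to glucocorticoids and mineralocorticoids. Sgk1 encodes a kinase that raises sodium uptake through the channel ENaC in the colon, and it had 2622 and 2832 normalized counts at ZT6 and 7944 and 9421 at ZT18. Both ZT18 libraries were well above both ZT6 libraries (log2 fold change 1.67, SE 0.24), with an adjusted p of 0.0837 in limma and 3.36e-08 in DESeq2. Tsc22d3, also named Gilz, which mediates part of the anti-inflammatory action of glucocorticoids, had 848 and 731 normalized counts at ZT6 and 2412 and 1705 at ZT18 (log2 fold change 1.36, limma adjusted p 0.387, DESeq2 adjusted p 0.00564). Fkbp5, a chaperone of the glucocorticoid receptor that limits its action, had 1899 and 2022 normalized counts at ZT6 and 3266 and 4448 at ZT18 (log2 fold change 0.96, limma adjusted p 0.556).

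Other genes of the same list ran the other way. Nr3c2, the mineralocorticoid receptor, had 3473 and 3213 normalized counts at ZT6 and 2193 and 2207 at ZT18 (log2 fold change -0.60, limma adjusted p 0.584), lower in both ZT18 libraries. Tat, a tyrosine-degrading enzyme, was lower by a log2 fold change of -0.54, and Nfkbia, the inhibitor of NF-kappaB, by one of -0.41. Of 18 listed genes 16 were tested. Among them, 3 were higher and 3 were lower at an unadjusted p under 0.05, against 3.22% and 3.49% of all genes. None passed after adjustment in limma, and DESeq2 called Sgk1 and Tsc22d3. The list median was 0.11, with 8 members above 0 and 8 below. It moved with single libraries, to 0.30 without ZT6 replicate 1, 0.05 without ZT6 replicate 2 and 0.32 without ZT18 replicate 1, and was 0.28 under quantile normalization. The list ran from Nr3c2 (-0.60) and Tat (-0.54) to Tsc22d3 (1.36) and Sgk1 (1.67). The stretch of the Sgk1 promoter shown here (chr10:21978499-21978598, plus strand of GRCm38.p6, RefSeq) holds, in capitals, the half-site pair ACANNNTGT to which steroid receptors bind.
Sgk1: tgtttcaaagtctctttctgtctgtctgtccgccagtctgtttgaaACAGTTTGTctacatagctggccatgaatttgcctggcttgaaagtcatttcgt
This spelling was found within 250 bases upstream in 2 of 13 promoters of the list (15.4%; Mt1 and Sgk1) and in 5.84% of all promoters, on either strand.

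Chaperones of the cytosol were higher at mid-night. Of the 18 genes in the list of heat shock and cold-inducible genes, all of which were tested, 10 were higher and 1 was lower at an unadjusted p under 0.05, against 3.22% and 3.49% of all genes, and none passed after adjustment in limma. The median log2 fold change was 0.51, and both ZT18 libraries had a median deviation from the 8-library mean (0.39 and 0.29) above both ZT6 libraries (-0.22 and -0.24). Hsph1, a nucleotide exchange factor that works with HSP70, had 291 and 307 normalized counts at ZT6 and 916 and 1138 at ZT18. Both ZT18 libraries were well above both ZT6 libraries (log2 fold change 1.77, SE 0.26, limma adjusted p 0.0949, DESeq2 adjusted p 2.61e-06).

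The inducible chaperone Hspa1b had 149 and 200.2 normalized counts at ZT6 and 629.7 and 656 at ZT18 (log2 fold change 1.89, limma adjusted p 0.634), and because Hspa1a is nearly identical, the split of reads between them is uncertain. Hsp90aa1, the inducible form of HSP90, had 2676 and 2851 normalized counts at ZT6 and 6200 and 4865 at ZT18, and Hsp90ab1, the constitutive form, had 13742 and 12969 normalized counts at ZT6 and 21144 and 20846 at ZT18. Both were higher in both ZT18 libraries, with log2 fold changes of 0.99 and 0.65 and DESeq2 adjusted p-values of 0.00416 and 0.0158. Hspa8, the constitutive HSP70, had 15782 and 14515 at ZT6 and 31837 and 21465 at ZT18, and Hspd1, the mitochondrial chaperonin, had 2811 and 2945 at ZT6 and 4294 and 4811 at ZT18. DESeq2 called these also (adjusted p 0.0471 and 0.0471). Stip1, which hands clients from HSP70 to HSP90 and stood in no list, was higher as well, with 759 and 794 at ZT6 and 1285 and 1585 at ZT18 (DESeq2 adjusted p 0.0133). Against this direction, Cirbp, an RNA-binding protein induced by cold, had 793 and 764 normalized counts at ZT6 and 661 and 331 at ZT18 (log2 fold change -0.73, limma unadjusted p 0.0337). The count of members that were higher at an unadjusted p under 0.05 was 5 without ZT6 replicate 2 and between 8 and 11 without any other single library. Members ran in log2 fold change from Cirbp (-0.73) and Rbm3 (-0.37) to Hspa1a (1.80) and Hspa1b (1.89).

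Hspd1 and Hspe1, which encode the partners of the mitochondrial chaperonin and are transcribed away from a shared promoter, were the 2 of 14 list members with the heat shock element, read as GAA, TTC and GAA or as TTC, GAA and TTC with 2 free bases between each, within 250 bases upstream (14.3%, against 0.466% of all promoters). Hspe1 had 1016 and 990.0 at ZT6 and 1447 and 1392 at ZT18 (log2 fold change 0.50), close to the difference of Hspd1 (0.66). The stretch upstream of Hspd1 is shown with the element in capitals (chr1:55088021-55088120, minus strand of GRCm38.p6, RefSeq).
Hspd1: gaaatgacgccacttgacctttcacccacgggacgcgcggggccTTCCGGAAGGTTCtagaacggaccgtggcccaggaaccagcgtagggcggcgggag

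Chaperones of the endoplasmic reticulum, which fold secreted and membrane proteins and are induced by the unfolded protein response, were also higher. All 21 listed genes were tested. Of them 8 were higher and 0 were lower at an unadjusted p under 0.05, against 3.22% and 3.49% of all genes. A log2 fold change above 0 was seen in 19 members, against 48.4% of all genes, and the median was 0.41. None passed after adjustment in limma. Hspa5, the main HSP70 of this compartment, also known as BiP, had 5356 and 5128 normalized counts at ZT6 and 7845 and 9400 at ZT18 (log2 fold change 0.71, SE 0.18, limma adjusted p 0.535), and was the 1 member that DESeq2 called (adjusted p 0.0305). Creld2, a chaperone-like stress protein, had the largest difference of the list, with 524 and 697 normalized counts at ZT6 and 1614 and 975 at ZT18 (log2 fold change 1.05). In both genes the groups did not overlap.

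Hyou1, a large chaperone and partner of BiP, had 962 and 878 at ZT6 and 1267 and 2048 at ZT18, Calr, the lectin chaperone calreticulin, had 6774 and 6537 at ZT6 and 9363 and 11389 at ZT18, and Manf, a secreted stress protein, had 1165 and 1027 at ZT6 and 2041 and 1418 at ZT18. ZT18 replicate 2 was the higher of the night libraries for Hspa5, Hyou1 and Calr, and replicate 1 for Creld2 and Manf. The lowest members were Ern2 (-0.49), the goblet cell form of the stress sensor IRE1, and Dnajb9 (-0.10), a co-chaperone of BiP. Without ZT18 replicate 2 the list median was 0.24, and the count of higher members at an unadjusted p under 0.05 was 3 without either of the ZT6 libraries. Markers of goblet cells, which secrete much protein, had a median deviation of -0.09 and -0.14 at ZT6 and of 0.36 and -0.42 at ZT18, and thus were high in 1 night library and low in the other; their part in the result was not tested.

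The ER stress element, CCAAT and CCACG with 9 free bases between them on either strand, to which ATF6 binds together with NF-Y, stood within 250 bases upstream in 7 of 17 promoters of this list (41.2%; Calr, Canx, Creld2, Dnajc3, Hsp90b1, Hspa5 and Pdia6) and in 37 of all 32851 promoters (0.113%). Members of the list are known targets of ATF6, so this is a property of the list and says nothing of the time of day. The stretch of the Hspa5 promoter with the element in capitals (chr2:34771984-34772083, plus strand of GRCm38.p6, RefSeq) begins its match 65 bases before the annotated start.
Hspa5: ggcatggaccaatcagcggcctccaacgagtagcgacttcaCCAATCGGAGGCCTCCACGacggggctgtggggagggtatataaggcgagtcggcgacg

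Genes of DNA replication had log2 fold changes above 0 and most genes of mitosis had ones below 0, but none passed after adjustment in limma. In the list of replication and S phase, 27 of 28 genes were tested, all 27 had a log2 fold change above 0, against 48.4% of all genes, and 14 were higher and 0 were lower at an unadjusted p under 0.05, against 3.22% and 3.49%. The smallest adjusted p in limma was 0.387. The median was 0.66, and in 23 members both ZT18 libraries lay above both ZT6 libraries, against 19.2% of all genes. Mcm3, a subunit of the replicative helicase, had 277 and 245 normalized counts at ZT6 and 590.4 and 538 at ZT18 (log2 fold change 1.11, SE 0.22, limma adjusted p 0.387). Mcm2 and Mcm6, subunits of the same ring, had 289.5 and 339 at ZT6 and 672 and 563 at ZT18, and 585 and 589.6 at ZT6 and 1234 and 1071 at ZT18. DESeq2 called all 3 (adjusted p 0.0211, 0.0388 and 0.0187) as well as Uhrf1, which maintains DNA methylation at the fork and had 414 and 363 at ZT6 and 732 and 752 at ZT18 (adjusted p 0.0471).

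Pola1, the catalytic subunit of the primase polymerase, had 91.2 and 76.2 normalized counts at ZT6 and 177 and 181 at ZT18 (log2 fold change 1.09), and Cdc45, which activates the helicase, had 87.5 and 79.4 at ZT6 and 161 and 191 at ZT18 (log2 fold change 1.07). At the lower end, Orc1, of the origin recognition complex, and Chaf1b, of a histone chaperone, had log2 fold changes of 0.08 and 0.09, and their libraries overlapped. The median of the list was 0.71 when ZT18 replicate 1 was left out and 0.59 when replicate 2 was, and the 14 became 8 without ZT6 replicate 1 and 9 without ZT6 replicate 2. The E2F site, here spelled TTTCCCGC, TTTGGCGC, TTTCGCGC or TTTGCCGC on either strand, stood within 250 bases upstream in 7 of 21 promoters of the list (33.3%; Cdc6, Mcm5, Mcm6, Mcm7, Orc1, Pola1 and Uhrf1) and in 1.86% of all promoters. That share is a property of the list and says nothing of the time of day. Mcm6 is shown as a member called by DESeq2 with an E2F site, in capitals (chr1:128359762-128359861, minus strand of GRCm38.p6, RefSeq).
Mcm6: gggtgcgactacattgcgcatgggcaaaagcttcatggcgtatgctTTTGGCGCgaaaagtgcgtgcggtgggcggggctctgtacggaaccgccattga

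In the list of mitosis and G2/M, all 24 genes were tested, 0 were higher and 6 were lower at an unadjusted p under 0.05, against 3.22% and 3.49% of all genes, 19 had a log2 fold change below 0, against 51.4% of all genes, and the median was -0.29. Ccnb2, a B-type cyclin that drives entry into mitosis, had 395 and 334 normalized counts at ZT6 and 206 and 224 at ZT18 (log2 fold change -0.75, SE 0.22, limma adjusted p 0.634). Cdc25c, the phosphatase that activates CDK1, had 71.5 and 77.2 at ZT6 and 31.6 and 41.8 at ZT18 (log2 fold change -1.01), and Mki67, the proliferation marker Ki-67, had 3574 and 2575 at ZT6 and 2238 and 2268 at ZT18 (log2 fold change -0.43). In all 3 genes both ZT18 libraries were below both ZT6 libraries, though for Mki67 ZT6 replicate 2 was close to the night values. This list depended on single libraries, since 0 members were lower at an unadjusted p under 0.05 without ZT6 replicate 1, where the median was -0.14, and 1 was without ZT18 replicate 1, where the median was -0.16. Log2 fold changes of the list ran from Cdc25c (-1.01) and Bub1 (-0.77) to Top2a (0.13) and Wee1 (0.65). No gene of it passed in limma or DESeq2. The CHR element, TTTGAA or TTCGAA, was found in 8 of 18 promoters of this list (44.4%) and in 17.1% of all promoters. In the remaining lists the share ran from 0.00% to 48.3%, the latter in xenobiotic metabolism, so the match is not particular to mitosis genes. The stretch upstream of Ccnb2 holds TTTGAA in capitals (chr9:70421669-70421768, minus strand of GRCm38.p6, RefSeq).
Ccnb2: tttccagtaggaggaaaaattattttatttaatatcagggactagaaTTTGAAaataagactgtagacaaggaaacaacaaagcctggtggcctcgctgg

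Genes of stem cells and Wnt signalling, which sit at the crypt base, were slightly lower in their median (-0.23), and none passed after adjustment in limma. Of 18 genes 15 were tested, and 10 had a log2 fold change below 0, against 51.4% of all genes. In 6 members both ZT18 libraries lay below both ZT6 libraries and in 1 above, against 18.8% and 19.2% of all genes. Myc was the 1 higher member at an unadjusted p under 0.05 in limma (351 and 348 at ZT6 and 541 and 439 at ZT18). Axin2, a feedback inhibitor of Wnt signalling, was the 1 lower (535 and 484 at ZT6 and 238 and 425 at ZT18). These counts of 1 and 1 stand against 3.22% and 3.49% of all genes, and in DESeq2 both counts were 0. The list ran from Axin2 (-0.68) and Lrig1 (-0.41) to Sox9 (0.26) and Myc (0.48).

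**Figure D3:**
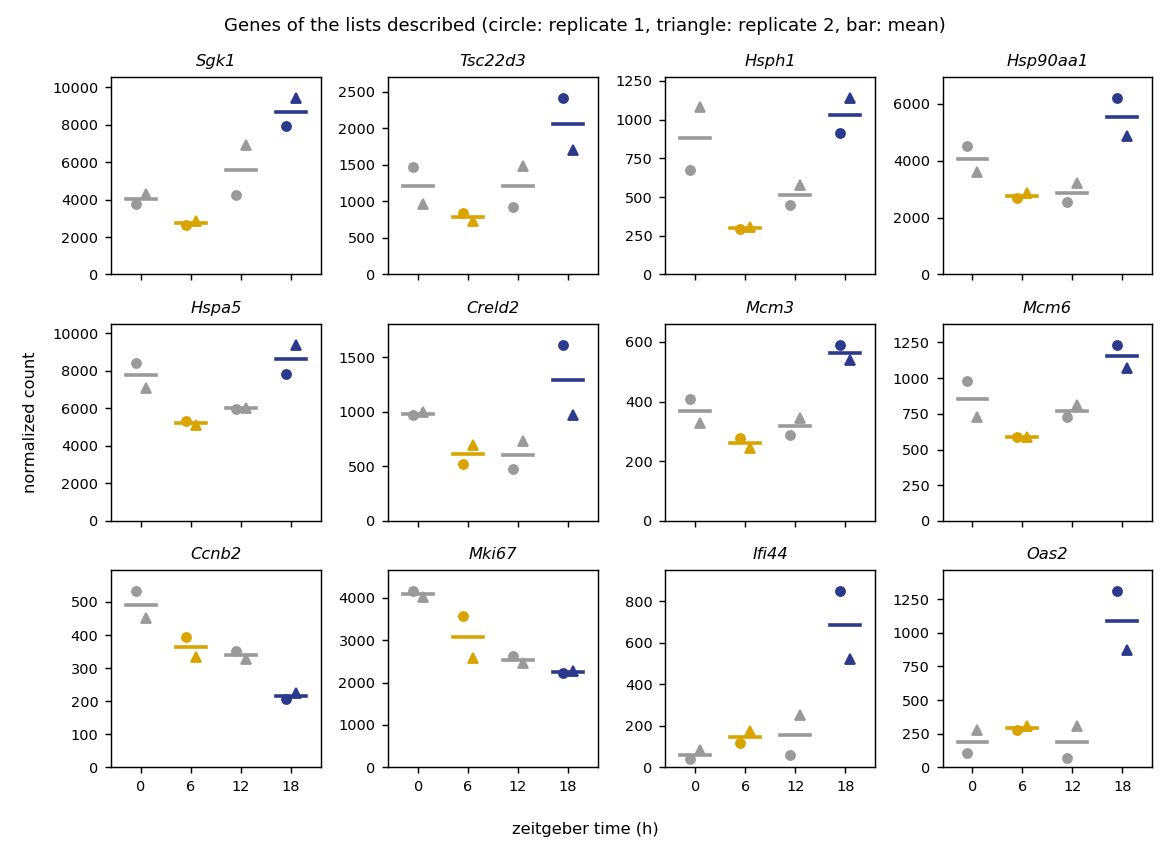
Normalized counts (y axis, starting at 0) by zeitgeber time (x axis, hours) for 12 genes of the steroid hormone, chaperone, replication, mitosis and interferon lists, with replicate 1 as a circle, replicate 2 as a triangle and the mean of both as a bar; ZT6 is yellow, ZT18 is blue and the remaining times are grey. In the first 8 panels and in those of Ifi44 and Oas2 both ZT18 libraries lie above both ZT6 libraries, and in those of Ccnb2 and Mki67 they lie below.

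Metabolic lists had smaller differences. Cholesterol synthesis, which is under the control of SREBP2, was lower in its median (-0.28), with 19 of 23 members below 0, against 51.4% of all genes. At an unadjusted p under 0.05, 0 were higher and 4 lower, against 3.22% and 3.49% of all genes. Mvd, which makes isopentenyl diphosphate, had 1497 and 1808 normalized counts at ZT6 and 1131 and 741 at ZT18 (log2 fold change -0.85, SE 0.24, limma adjusted p 0.634). Insig1, which holds SREBP2 back and is itself a target of it, had 2558 and 3273 normalized counts at ZT6 and 1582 and 1356 at ZT18 (log2 fold change -0.98). The groups did not overlap in these genes, but the count of 4 was 7 when ZT18 replicate 1 was left out and 0 when ZT6 replicate 2 or ZT18 replicate 2 was. Log2 fold changes ran from Insig1 (-0.98) and Mvd (-0.85) to Pmvk (0.28), and no gene of it passed in limma or DESeq2.

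Glycolysis had a median of 0.15 over 17 genes. Where 3.22% of all genes were higher and 3.49% lower at an unadjusted p under 0.05, 0 members were lower and 2 were higher. These were Pgk1, with 6541 and 5476 normalized counts at ZT6 and 13292 and 9174 at ZT18 (log2 fold change 0.88), and Pgam1, with 1437 and 1389 at ZT6 and 2334 and 1855 at ZT18 (log2 fold change 0.56), which catalyse neighbouring steps. Slc2a1, the glucose transporter GLUT1, had the lowest log2 fold change of the list, -0.29, and without ZT18 replicate 1 the median was -0.07. In fatty acid oxidation and ketogenesis, 28 of 30 genes were tested, with a median of -0.14 in limma and 0.02 in DESeq2. There 1 was higher and 2 were lower at an unadjusted p under 0.05 in limma, against 3.22% and 3.49% of all genes. Slc25a20, the carnitine carrier of mitochondria, had 4547 and 4185 at ZT6 and 3223 and 2920 at ZT18 and Acadl, an acyl-CoA dehydrogenase, had 2688 and 2527 at ZT6 and 1806 and 2160 at ZT18. Both were lower at mid-night. The direction of that list rested on 1 library, since its median was 0.27 without ZT18 replicate 1 and -0.40 without replicate 2, where 9 members were lower at an unadjusted p under 0.05. Its members ran from Vnn1 (-2.85) to Ppara (0.60) and Creb3l3 (0.71). In fatty acid synthesis the median was -0.05 over 18 genes, and Lpin1, a phosphatidate phosphatase, was the 1 lower gene (203 and 298 at ZT6 and 111 and 89.3 at ZT18), with members between Lpin1 (-1.30) and Gpam (-0.79) to Fads1 (0.42) and Scd1 (0.51).

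The 25 tested genes of nutrient and bile acid transport had a median of -0.30. Of these, 1 was higher and 3 were lower at an unadjusted p under 0.05, against 3.22% and 3.49% of all genes. Slc20a1, a phosphate transporter, had 18336 and 13602 normalized counts at ZT6 and 10213 and 7000 at ZT18 (log2 fold change -0.90, limma adjusted p 0.61, DESeq2 adjusted p 0.0447), Slc40a1, the iron exporter ferroportin, had 5901 and 5663 at ZT6 and 3245 and 4050 at ZT18, and Slc6a20a, a proline transporter, had 91.2 and 102 at ZT6 and 10.3 and 45.8 at ZT18. Slc39a4, a zinc importer, was the higher gene, with 4956 and 3817 at ZT6 and 5949 and 6785 at ZT18. Without ZT18 replicate 1 the median of this list was 0.04, and without replicate 2 it was -0.57, with 9 lower members. The list ran from Slc51a (-2.93) and Slc6a20a (-2.09) to Slc39a4 (0.55) and Slc6a19 (2.000). In ion and water transport, 30 genes had a median of -0.03 and ran from Car1 (-0.87) and Nedd4l (-0.52) to Scnn1g (0.78) and Clca4a (1.20), where Scnn1g encodes a subunit of ENaC. There Clca4a, a secreted metalloprotease linked to chloride currents, had 6346 and 6676 normalized counts at ZT6 and 19143 and 11668 at ZT18 (log2 fold change 1.20, DESeq2 adjusted p 0.0227), and Nedd4l, the ubiquitin ligase that removes ENaC and is held back by SGK1, had 2516 and 2468 at ZT6 and 1521 and 1991 at ZT18 (log2 fold change -0.52).

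**Figure D4:**
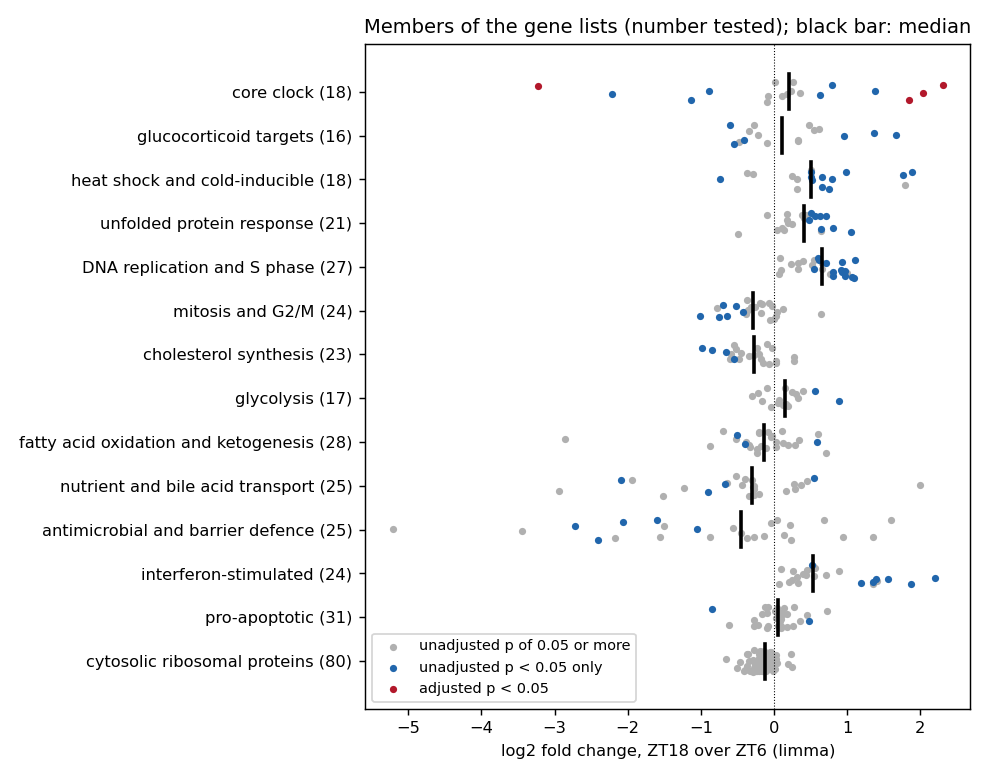
Each point is 1 tested gene of a list, placed by its log2 fold change from ZT6 to ZT18 (x axis) and jittered within its list (y axis, with the number of genes tested); red marks genes with an adjusted p under 0.05 in limma, blue those with only an unadjusted p under 0.05, grey the rest, and black bars are list medians. The red points are the 4 clock genes, and among the 14 lists plotted the medians run from -0.46 for antimicrobial and barrier genes to 0.66 for replication.

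Genes of antimicrobial and barrier defence were lower at mid-night in part. Of 30 listed genes 25 were tested, 0 were higher and 5 were lower at an unadjusted p under 0.05, against 3.22% and 3.49% of all genes, and the median was -0.46 in limma and -0.18 in DESeq2. Nos2, which makes nitric oxide, had 175 and 248 normalized counts at ZT6 and 51.3 and 28.95 at ZT18 (log2 fold change -2.40, limma adjusted p 0.387, DESeq2 adjusted p 0.00572). Ccl20, a chemokine that draws CCR6-bearing lymphocytes, had 134 and 275 at ZT6 and 74.3 and 10.5 at ZT18, and Sprr1a, a relative of Sprr2a1, had 623 and 893 at ZT6 and 217 and 146 at ZT18. In each of these both ZT18 libraries were below both ZT6 libraries. Il18, a cytokine made by colonocytes, had 1976 and 2064 at ZT6 and 1390 and 684 at ZT18 (log2 fold change -1.05). Members ran from Reg3b (-5.21) and Reg3g (-3.45) to Ang4 (1.35) and Retnlb (1.60). Without ZT6 replicate 2 the count of 5 was 2, and without ZT18 replicate 1 it was 8, with a median of -0.76. Without ZT18 replicate 2 there were 3 higher and 7 lower members, with a median of -0.30 and 11 members above 0. Birc3, an inhibitor of apoptosis and like Nos2 and Ccl20 a known target of NF-kappaB, had 1931 and 1884 normalized counts at ZT6 and 1030 and 839.7 at ZT18 (log2 fold change -1.04, limma adjusted p 0.494, DESeq2 adjusted p 0.0378).

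Other members of the list were set by single libraries. Reg3b, a C-type lectin against bacteria, had 4478 and 711 normalized counts at ZT6 and 0 and 2319 at ZT18, and its relative Reg3g had 1286 and 260.0 at ZT6 and 5.13 and 458 at ZT18. Retnlb, a goblet cell protein against bacteria, had 1111 and 1132 at ZT6 and 14558 and 795 at ZT18, and Ang4, an antimicrobial ribonuclease, had 1275 and 1006 at ZT6 and 17406 and 479 at ZT18. ZT18 replicate 1 was thus at the bottom for the Reg3 genes and at the top for Retnlb and Ang4, while ZT18 replicate 2 lay within the ZT6 range for the Reg3 genes and below it for the others.

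Interferon-stimulated genes lay above their mid-day level at mid-night, by different amounts. Of 26 genes 24 were tested, all 24 had a log2 fold change above 0 in limma (in DESeq2 Ifit3 was at -0.03), against 48.4% of all genes, 7 were higher and 0 were lower at an unadjusted p under 0.05, against 3.22% and 3.49% of all genes, and the median was 0.54; none passed in limma. Ifi44, which interferon induces strongly, had 119.5 and 174 normalized counts at ZT6 and 848 and 524 at ZT18 (log2 fold change 2.20, SE 0.64, limma adjusted p 0.634, DESeq2 adjusted p 0.0363). Oas2, a sensor of double-stranded RNA, had 277 and 306 at ZT6 and 1308 and 869 at ZT18, and Bst2, which tethers virus particles, had 296 and 447 at ZT6 and 1058 and 816 at ZT18. Gbp2, a guanylate-binding protein, had 293 and 306 at ZT6 and 1566 and 499 at ZT18. ZT18 replicate 1 was the higher library in all 4 genes, and without it the median was 0.36 and 2 members were higher at an unadjusted p under 0.05. Without ZT6 replicate 1 that count was 1, and without ZT18 replicate 2 it was 12. The median was 0.85 without ZT6 replicate 2, and members above 0 numbered 22 without ZT6 replicate 1 and 21 without ZT18 replicate 1. The list ran from Ifit3 (0.07) and Irf9 (0.09) to Oas2 (1.87) and Ifi44 (2.20).

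The interferon-stimulated response element, GAAA and GAAA with 2 free bases between them on either strand, was found within 250 bases upstream in 10 of 18 promoters of this list (55.6%) and in 2.98% of all promoters. Here too the share is a property of the list and says nothing of the time of day. The stretch before Gbp2 carries the element in capitals, read on the opposite strand (chr3:142620559-142620658, plus strand of GRCm38.p6, RefSeq).
Gbp2: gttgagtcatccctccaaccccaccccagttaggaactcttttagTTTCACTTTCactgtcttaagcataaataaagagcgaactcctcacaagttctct
Genes of antigen presentation shared this direction. Nlrc5, the activator of MHC class I genes, had 32.03 and 29.4 normalized counts at ZT6 and 349 and 179 at ZT18 (log2 fold change 2.99, DESeq2 adjusted p 0.0302). The 8 genes of MHC class II had a median of 1.56, with 1 higher at an unadjusted p under 0.05, against 3.22% of all genes. It was H2-Ab1 (238 and 183 at ZT6 and 754 and 688 at ZT18). Cd74, the invariant chain, had 420.1 and 198 at ZT6 and 1326 and 1311 at ZT18. The spread over the series was wide, however, with 184 and 3330 at ZT0 and 677 and 1123 at ZT12 for Cd74.

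Markers of lymphocytes moved with these genes in part. Cd8a, a coreceptor of cytotoxic and intraepithelial T cells, had 6.16 and 13.1 normalized counts at ZT6 and 81.2 and 84.4 at ZT18 (log2 fold change 3.06, limma adjusted p 0.556). The summed T cell markers were 107 and 109 normalized counts at ZT6 and 182 and 291 at ZT18; 4 of their 8 genes had a mean of at least 10, and Cd4 was at 0 in both ZT18 libraries. Summed B and plasma cell markers were 317 and 200.2 at ZT6 and 612 and 203 at ZT18, and myeloid markers 133 and 95.7, and 66.6 and 51.5. T cell markers were thus higher and myeloid markers lower in both night libraries, and their part in the interferon and MHC class II values was not tested. The ZT0 libraries, with 38.7 and 312 for T cell and 25.8 and 1392 for myeloid markers, lay further apart than these 4 libraries did. Endothelial markers were also lower, with Pecam1, the platelet and endothelial adhesion molecule, at 112 and 115 at ZT6 and 24.8 and 26.5 at ZT18 (log2 fold change -2.11, DESeq2 adjusted p 0.00162). Dclk1, the defining kinase of tuft cells, was higher, with 171 and 177 at ZT6 and 384 and 327 at ZT18 (log2 fold change 1.02, limma adjusted p 0.61).

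Neighbouring Trim genes on chromosome 7 had the largest log2 fold changes of the comparison, led by Trim12a and Trim5. TRIM proteins of this family restrict viruses and tune innate signalling. Trim12a (ENSMUSG00000066258, chromosome 7, 104299894 to 104315466, minus strand) had 0 and 0 normalized counts at ZT6 and 1283 and 763 at ZT18. Against the limit of 3 reads per library that a count of 0 allows, this is at least 294-fold higher at ZT18 (limma adjusted p 0.459, DESeq2 adjusted p 1.04e-09). The pattern did not follow the time of day alone, since Trim12a had 0 and 826 at ZT0 and 627 and 811 at ZT12. ZT0 replicate 1 was thus at 0 together with both ZT6 libraries, and the remaining 5 libraries formed a separate, high group.

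Some of its neighbours showed the same order of libraries. Trim30d had 45.6 and 27.2 normalized counts at ZT6 and 1050 and 1048 at ZT18 and 30.8 and 693 at ZT0 and 781 and 1386 at ZT12, and Trim5, which was named after its values were seen, had 0 and 0 at ZT6 and 220.4 and 127 at ZT18 and 0 and 199.6 at ZT0 and 151 and 198 at ZT12. The same 3 libraries were lowest in each. Trim12c, between Trim12a and Trim30a on the same strand, had 1477 and 1514 at ZT6 and 1474 and 938 at ZT18 and did not share that order, and Trim30a had 116 and 119.7 at ZT6 and 886 and 536 at ZT18 (log2 fold change 2.54, limma adjusted p 0.378, DESeq2 adjusted p 0.000119). These genes are close copies of each other, so the counting may have shifted reads between them. A like order of libraries was seen in Fam124a on chromosome 14, an uncharacterized gene with 7.39 and 11.97 normalized counts at ZT6 and 273 and 158 at ZT18 and 28.8 and 159.5 at ZT0 and 191 and 186 at ZT12 (log2 fold change 4.32, DESeq2 adjusted p 2.53e-06).

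The remaining genes with the largest changes among those with a mean of at least 100 over the 4 libraries, an unadjusted p under 0.05 and no overlap were mixed in kind. Higher at mid-night were Rfx2, a transcription factor of ciliated cells, with 105 and 9.79 at ZT6 and 414 and 318 at ZT18, and Cdh26, a cadherin, with 28.3 and 44.6 at ZT6 and 288 and 87.7 at ZT18. Lower were Col8a1, a short-chain collagen, with 317 and 233 at ZT6 and 12.8 and 75.6 at ZT18, the antisense RNA Gm36640, with 292 and 389 at ZT6 and 103 and 15.3 at ZT18, St8sia5, a sialyltransferase, with 354 and 304 at ZT6 and 143 and 28.1 at ZT18, and Znhit3, a zinc finger protein of small nucleolar particle assembly, with 203 and 252 at ZT6 and 44.4 and 81.2 at ZT18. In each of these 6 genes the replicates of at least 1 time point stood well apart, and none passed in limma. Reads of Gm36640 and of the gene on its opposite strand may not have been separated.

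Of the 68 genes that DESeq2 called, 44 stood in no list, and those not yet named were again mixed in kind. They were named after their values were seen, and none passed in limma. Higher at mid-night were Wdhd1, a replication factor that ties the helicase to the polymerase, with 72.7 and 101 at ZT6 and 272 and 303 at ZT18 (DESeq2 adjusted p 0.0149), and Mthfd1l, a mitochondrial enzyme of folate metabolism, with 152 and 157 at ZT6 and 381 and 325 at ZT18 (0.0434). P4ha1, a prolyl hydroxylase for collagen, had 340.0 and 218 at ZT6 and 690.4 and 655 at ZT18, Pm20d1, which joins fatty acids to amino acids, had 369.6 and 366 at ZT6 and 846 and 1095 at ZT18, and Kyat1, which converts kynurenine, had 1283 and 819 at ZT6 and 3378 and 1841 at ZT18. Tmem43, a protein of the inner nuclear membrane, had 1262 and 1014 at ZT6 and 3360 and 2274 at ZT18, Fam102a had 3483 and 3110 at ZT6 and 6543 and 5859 at ZT18, and Slfn9, a schlafen protein, had 352 and 361 at ZT6 and 864 and 769 at ZT18. In each of these genes both ZT18 libraries were above both ZT6 libraries. Tpbgl and Scara5, a ferritin receptor, were nearly absent at ZT6, with 14.8 and 10.9 at ZT6 and 145 and 163 at ZT18, and 4.93 and 20.7 at ZT6 and 98.3 and 113 at ZT18.

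Lower at mid-night were Slc37a2, a sugar phosphate transporter of the endoplasmic reticulum, with 7679 and 7800 at ZT6 and 3783 and 1859 at ZT18 (DESeq2 adjusted p 0.0489), and Clec2h, a lectin that is a ligand of a natural killer cell receptor, with 12531 and 13482 at ZT6 and 6372 and 6321 at ZT18 (0.00282). Ms4a12 had 1270 and 920.4 at ZT6 and 582 and 395 at ZT18, Fam129a, also named Niban1, had 2523 and 2374 at ZT6 and 1280 and 1430 at ZT18, and Mettl27, a putative methyltransferase, had 331 and 369 at ZT6 and 147 and 117 at ZT18. Their day libraries all lay above their night libraries. Pdx1, a transcription factor of the duodenum and pancreas, was near the detection limit, with 38.2 and 7.62 at ZT6 and 0 and 0 at ZT18, as were Igfn1, Emp3 and the antisense RNA 1700110K17Rik, each of which was at 0 in both ZT18 libraries and at 11.1 to 55.5 in the ZT6 libraries. The 7 tested genes that mark the distal hindgut, among them 6 Hox genes, had a median of -0.17, -0.85 without ZT18 replicate 1 and 0.75 without replicate 2, and Hoxb13, which is confined to the distal end, had 3870 and 4086 at ZT6 and 6927 and 2508 at ZT18, so that the night libraries also differed from each other in genes of position along the gut.

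Apoptosis genes, which the study followed over the day, showed no common shift between ZT6 and ZT18. Of 32 listed pro-apoptotic genes 31 were tested, with a median log2 fold change of 0.06, 1 higher and 1 lower at an unadjusted p under 0.05, close to the 3.22% and 3.49% of all genes. Bcl2l11, which encodes BIM, was the higher gene, with 343 and 342 at ZT6 and 534 and 429 at ZT18 (log2 fold change 0.48), and Bid, which links death receptors to mitochondria, the lower, with 455 and 494 at ZT6 and 295 and 236 at ZT18 (log2 fold change -0.84). The effector Bax had 1071 and 1041 at ZT6 and 945 and 869 at ZT18 and Trp53, which encodes p53, had 476 and 560.3 at ZT6 and 491 and 608 at ZT18, with log2 fold changes of -0.22 and 0.08 (limma adjusted p 0.918 and 0.972). Of 10 tested anti-apoptotic genes, Mcl1 was higher, with 10724 and 8585 at ZT6 and 17523 and 11555 at ZT18 (log2 fold change 0.57, limma unadjusted p 0.0427), Birc3 was lower as given above, and the median was 0.09. The pro-apoptotic list ran from Bid (-0.84) and Htra2 (-0.61) to Bcl2l11 (0.48) and Diablo (0.73), and the anti-apoptotic list from Birc3 (-1.04) and Bcl2 (-0.16) to Birc2 (0.22) and Mcl1 (0.57).

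Several further lists stayed near the centre of all genes. For their counts, 3.22% of all genes were higher and 3.49% lower at an unadjusted p under 0.05. The integrated stress response and amino acid synthesis list had a median of 0.10 over 17 genes, with Psat1, an enzyme of serine synthesis, as the 1 higher gene (115 and 50.04 at ZT6 and 166 and 164 at ZT18). Insulin signalling and FOXO targets had a median of 0.08 over 16 genes, with Trib1, a pseudokinase, as the 1 higher gene (2325 and 1490 at ZT6 and 4511 and 2695 at ZT18). NAD salvage and sirtuins (0.05 over 17 genes) and autophagy and lysosome (0.02 over 26 genes) held 0 and 1 genes with an unadjusted p under 0.05, and ran from Sirt1 (-0.45) and Sirt3 (-0.38) to Nadk (0.26) and Nampt (0.41) and from Wipi1 (-0.81) to Atg16l1 (0.35) and Bnip3 (0.69). The first pair of these lists ran from Chac1 (-1.97) and Aldh1l2 (-0.93) to Slc7a11 (0.99) and Psat1 (1.11) and from Pik3ip1 (-1.03) and Gadd45a (-0.63) to Trib1 (0.91) and Irs1 (1.35). Immediate early genes, which respond to tissue handling, had a median of 0.01 over 17 genes. In them Fosb, with 159 and 63.1 at ZT6 and 343 and 278 at ZT18, was higher, and Egr1, with 394 and 315 at ZT6 and 223 and 187 at ZT18, and Socs3, with 237 and 491 at ZT6 and 83.7 and 195 at ZT18, were lower, at unadjusted p-values of 0.00468, 0.00975 and 0.0489 in limma.

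The 2 night libraries also lay apart in housekeeping and metabolic genes. Among the 9981 genes with a mean of at least 100 over the 4 libraries, 786 (7.87%) were more than 2-fold apart between the ZT18 replicates, against 50 (0.501%) between the ZT6 replicates. The 80 cytosolic ribosomal protein genes had a median log2 fold change of -0.12 and 0 genes with an unadjusted p under 0.05, while ZT18 replicate 1 lay above the ZT6 libraries (median deviations 0.37 against 0.08 and 0.18) and replicate 2 below them (-0.38). The median was -0.53 without replicate 1 and 0.23 without replicate 2, so no direction can be given for these genes, which ran from Rpl38 (-0.65) and Rps28 (-0.51) to Rpl7l1 (0.23) and Rps13 (0.25). The 79 nuclear-encoded genes of the respiratory chain had a median of -0.12. While 3.49% of all genes were lower at an unadjusted p under 0.05, 2 of these 79 were. Of these genes 68 had a log2 fold change below 0, against 51.4% of all genes. Both ZT18 libraries lay below both ZT6 libraries in 21 and above in 1, against 18.8% and 19.2% of all genes. The median was -0.27 without ZT18 replicate 1 and -0.03 without replicate 2. The 12 mitochondrially encoded genes had median deviations of 1.02 and -0.57 in the night libraries, against 0.69 and 0.60 at ZT6. These lists ran from Cox7a1 (-0.87) and Ndufa1 (-0.63) to Sdhc (0.13) and Cox6b2 (0.23) and from mt-Nd3 (-1.12) and mt-Nd1 (-0.55) to mt-Co3 (0.13) and mt-Nd4l (0.17).

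Xenobiotic metabolism behaved in the opposite way. Its 33 tested genes had a median deviation of -0.40 in ZT18 replicate 1 and of 0.24 in replicate 2, with 0.17 and 0.21 at ZT6. The list median of -0.33 became 0.15 without ZT18 replicate 1, where 20 of the 33 genes were above 0, so that this direction rests on 1 library. In this list 1 of the 33 genes was lower at an unadjusted p under 0.05, close to the 3.49% of all genes. It was Sult1a1, a sulfotransferase (4881 and 6015 at ZT6 and 2217 and 4095 at ZT18). The ends of the list were Abcc2 (-2.99) and Cyp2c66 (-0.87) below and Gsta4 (0.35) and Cyp3a13 (0.36) above. Car1, carbonic anhydrase 1 of colonocytes, had 105999 and 143331 normalized counts at ZT6 and 29320 and 156024 at ZT18, and the transporter Slc51a, which moves bile acids out of the cell, had 775 and 1073 at ZT6 and 5.13 and 2332 at ZT18. For both, ZT0 replicate 1 was the library nearest to ZT18 replicate 1, at 25770 and 0. Transcripts of milk proteins were present in ZT18 replicate 1, where 5 casein and whey genes summed to 4149 normalized counts, and reached 12.3, 89.2 and 10.5 in the remaining 3 libraries. Wap, whey acidic protein, had 6.16 and 28.3 at ZT6 and 1048 and 0 at ZT18, and Csn1s2a, a casein, had 0 and 10.9 at ZT6 and 914 and 6.43 at ZT18. The part of these differences in any result above was not tested.

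**Figure D5:**
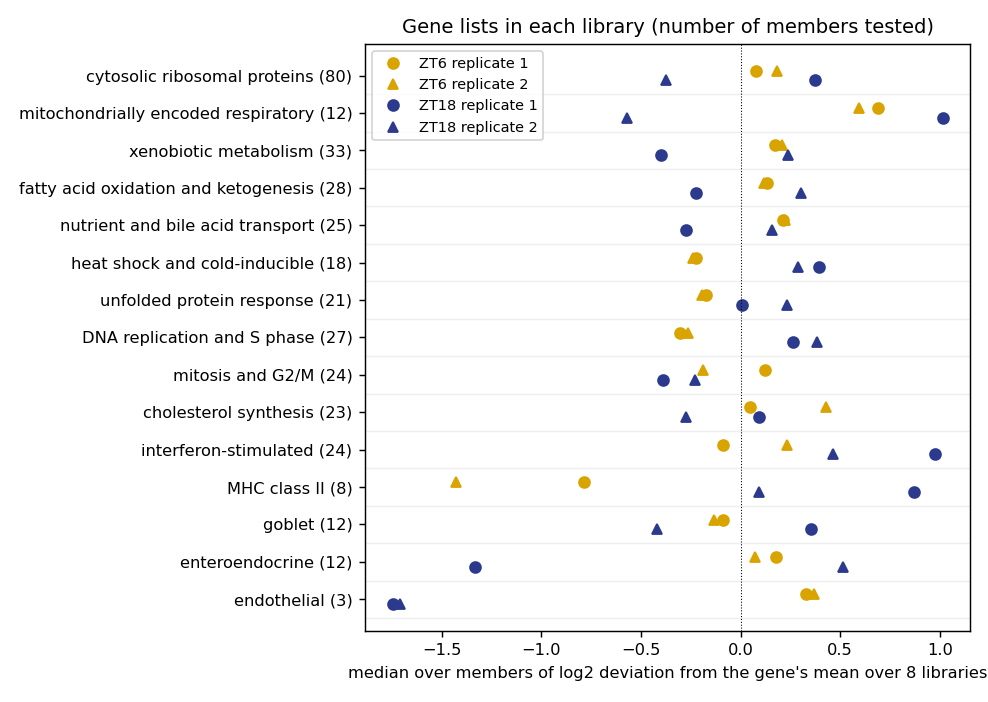
For each list, the median of its members' log2 deviations, each taken from the gene's average over 8 libraries (x axis), for the ZT6 libraries (yellow) and the ZT18 libraries (blue), replicate 1 as a circle and replicate 2 as a triangle, with the number of genes tested beside each list. In the heat shock, unfolded protein response and replication lists both blue symbols lie to the right of both yellow ones, whereas in the ribosomal, mitochondrial and goblet lists the blue symbols lie on either side of them.

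Set against the difference between lights off (ZT12) and lights on (ZT0), which shares no library with the comparison above, the difference between mid-night and mid-day involved partly other genes. The 2 differences were themselves different for 13 genes (limma test of the difference, 0.0963% of genes tested), among them 9 clock genes. Dbp had a log2 fold change of -2.21 from ZT6 to ZT18 and of 5.74 from ZT0 to ZT12 (limma adjusted p 0.000164 for the difference), and Nr1d1 had -3.23 and 2.91 (adjusted p 0.00198). Both were lower at mid-night and higher at lights off. Cry1 rose by 2.04 from ZT6 to ZT18 and had its ZT12 libraries below those of ZT0; these log2 fold changes differed by 3.04 (adjusted p 0.00347). Tef and Per3 differed little between ZT6 and ZT18 (0.17 and 0.12) and much between ZT0 and ZT12 (3.56 and 3.14), so that these genes were called between ZT0 and ZT12 only. Per2 was higher in both (2.31 and 1.66), and the difference between these values was not past the threshold (adjusted p 0.619).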

How the data were processed

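RNA-seq libraries of mouse colonic crypts, 2 at each of ZT0, ZT6, ZT12 and ZT18, were taken from 1 deposited table of 14247 genes. The authors aligned the reads with STAR to GRCm38 and normalized them with DESeq2, and the deposited signal is a read count divided by a size factor for each library. The use of strand, the counting tool and the annotation are not given in the sources used here. The table held no gene with a mean under 6.55, and its columns of a fold change, error, statistic and p-values from the authors' own comparison were not used. Groups came from the sample labels.

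Genes with a mean of at least 10 over the 8 libraries (13503 genes) were fitted on log2(normalized count + 1) with limma 3.58.1 (R 4.3.3), with a mean for each time point over all 8 libraries and a mean-variance trend in eBayes. Tests were two-sided, and p-values were adjusted over all genes by the Benjamini-Hochberg method. Fold changes on this scale understate those of low genes. Every deposited value divided by the worth of 1 read in its library gave a whole number (100%, tolerance 0.02 of a read), so that reads were recovered, between 14722342 and 25159440 for each library, and tested with DESeq2 1.42.0 and edgeR 4.0.16 as alternatives. A count of 0 allows up to 3 reads, for counting error only. The fits were tested on simulated data. Coordinates are those of GENCODE M21 (GRCm38, 14244 genes matched), and promoters came from RefSeq (GRCm38.p6), with a promoter for 77.9% of the genes tested.

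Named were the clock genes, the genes called by limma, the 10 largest rises and the 10 largest falls among genes with a mean of at least 100 over the 4 libraries, an unadjusted p under 0.05 and no overlap, the 2 highest and 2 lowest members of lists, and the 10 genes with the smallest adjusted p in DESeq2. Some genes that meet these rules are not reported here. Further members and genes were named after their values were seen. The genes, lists and rules were chosen with earlier results of these data known. Alternatives were other scalings, filters, pseudocounts, variance models and sets of libraries, a replicate block, and leaving out each library in turn.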

Additional observations from a re-analysis of the deposited data

Results flagged for a closer look

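The difference between ZT18 and ZT6 differed from that between ZT12 and ZT0 in 13 genes (limma test of the difference of 2 log2 fold changes that share no library, adjusted p under 0.05 over 13503 genes). The difference of the log2 fold changes, (ZT18 minus ZT6) minus (ZT12 minus ZT0), was negative in 9 genes. It was -7.95 for Dbp (SE 0.42, limma adjusted p 0.000164), -6.14 for Nr1d1 (SE 0.49, limma adjusted p 0.00198), -5.72 for Ciart (SE 0.61, limma adjusted p 0.0134) and -4.02 for Nr1d2 (SE 0.30, limma adjusted p 0.00192). Each of these clock genes was lower at ZT18 than at ZT6 and higher at ZT12 than at ZT0. For Tef it was -3.39 and for Per3 -3.03 (limma adjusted p 0.0227 and 0.0458), 2 genes with log2 fold changes near 0 between ZT6 and ZT18. For Gm42047 it was -3.39, for Ccdc116 -3.27 and for Tns4 -2.28 (limma adjusted p 0.0358, 0.00533 and 0.0432), with log2 fold changes from ZT0 to ZT12 of -0.06, 1.52 and 1.16.

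It was positive in 4 genes, Tppp3, Nfil3 and Cry1 among them. For Tppp3 it was 4.35 (SE 0.55, limma adjusted p 0.0358), for Nfil3 4.28 (SE 0.58, limma adjusted p 0.0434) and for Cry1 3.04 (SE 0.27, limma adjusted p 0.00347). These genes were higher at ZT18 than at ZT6, and the log2 fold changes from ZT0 to ZT12 were -2.02 for Tppp3 and -2.89 for Nfil3. Per2, Cry2 and Per1 were not among the 13 genes.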

How the results depend on the processing

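The 6 genes called between ZT18 and ZT6 were 5 to 7 under the scalings, filters and pseudocounts tried, and 7 in edgeR. The count was 1 in eBayes without the trend, a gene outside the 6, 68 in DESeq2 and 0 in a fit of the 4 libraries alone, in which 902 genes had an unadjusted p under 0.05, and 0 to 9 with 1 library left out. The 13 genes of the difference of differences were 1 in eBayes without the trend, 105 in DESeq2, 6 in edgeR and 3 to 16 with 1 library left out; a fit of 4 libraries was not run for it. The 906 genes with an unadjusted p under 0.05 ranged from 311 to 1606 with 1 library left out. The 5136 genes without overlap ranged from 5136 to 10899, since an arm of 1 library overlaps less often by construction. With 1 library left out, its partner was assumed to vary like the rest.

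Replicate numbers came only from names: the correlation of same-numbered deviations was 0.023 for ZT6 and ZT18 and lay between -0.293 and 0.217 over all pairs of times. With the number as a block 9 genes were called, 5 of them among the 6, and 14 for the difference of differences.

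Of 4004 values of the 201 genes named, 3843 kept direction and side of the threshold, 35 lost a call, 67 gained one and 59 changed sign. Of 838 list medians 767 stayed within the spread. Several settings could not move a log2 fold change or a list median by construction. They were eBayes without the trend, the fit of the 4 libraries alone, the replicate block, no filter on low values, and leaving out a ZT0 or ZT12 library. Both totals include these settings and so overstate how stable the values are. Sign changed with DESeq2 on recovered reads Cyp2c66 at 0.85, Ifit3 at -0.0255, Slc51a at 0.34, Vnn1 at 0.11; with edgeR on recovered reads Cipc at -0.00152, Cyp2c66 at 0.83, Ifit3 at -0.0358, Slc51a at 0.33, Vnn1 at 0.0991; with pseudocount of 0.1 Wap at -0.38; with pseudocount of 10 Cyp2c66 at 0.10; with quantile normalization Cipc at -0.000997, Cyp2c66 at 0.27, Krt8 at -0.0911; with scaling to counts outside the mitochondrial genome Cipc at -0.0323. With 1 library left out, the log2 fold change changed sign for Ang4 (-1.24 to 3.94), Bcl2 (-0.40 to 0.0829), Bub1 (-2.01 to 0.46), Canx (-0.17 to 0.45), Car1 (-2.07 to 0.34), Cdh1 (-0.21 to 0.0218), Chac1 (-3.98 to 0.0457), Cipc (-0.084 to 0.10), Cox6b2 (-0.51 to 0.96), Cyp2c66 (-3.59 to 1.86), Epcam (-0.00154 to 0.13), Gsta4 (-0.18 to 0.89), Hoxb13 (-0.66 to 0.80), Htra2 (-1.29 to 0.0791), Ifit3 (-0.76 to 0.90), Irf9 (-0.0802 to 0.26), Krt8 (-0.21 to 0.31), Npas2 (-0.38 to 0.18), Orc1 (-0.38 to 0.53), Pmvk (-0.23 to 0.79), Ppara (-0.55 to 1.75), Reg3b (-10.80 to 0.38), Retnlb (-0.50 to 3.70), Rora (-0.24 to 0.96), Rps13 (-0.0344 to 0.52), Rps28 (-1.05 to 0.0316), Sdhc (-0.0312 to 0.29), Slc51a (-7.22 to 1.35), Sox9 (-0.23 to 0.75), Tef (-0.14 to 0.49), Top2a (-0.17 to 0.42), Trp53 (-0.0712 to 0.24), Vnn1 (-6.85 to 1.14), Wap (-3.86 to 6.18), mt-Co3 (-0.70 to 0.95), mt-Nd1 (-1.28 to 0.17), mt-Nd4l (-0.0789 to 0.41). The causes were not tested. With 2 libraries a group, differences that lie within the spread of the ZT18 libraries were not detectable.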
